A study of Homo sapiens with 16 samples.

Results

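Kallikrein-related peptidase genes lie side by side on the long arm of chromosome 19. The 6 genes described here, KLK5, KLK6, KLK7, KLK8, KLK10 and KLK11, were listed by name, and they were chosen by their levels and glucose response in these same libraries. The table held 5 of the 6 among its 18332 genes, and KLK11 was not analysed here. RNA was sequenced from 2 established human breast cancer lines, MDA-MB-468 and MDA-MB-231, both labelled as estrogen receptor negative. For 48 hours the cells received glucose at 5 mM (control, low glucose) or at 25 mM (a model of hyperglycemia, high glucose), and each of the 4 groups had 4 replicates. Per the study's methods, cells of all groups were first held in low-glucose medium and then kept without serum, and the lines were otherwise grown in different media, DMEM for MDA-MB-231 and RPMI for MDA-MB-468. Some of the study's low-glucose controls held mannitol to match osmolarity. Whether these libraries' controls did is not given in the sources used here, so the effects of glucose and of osmolarity cannot be told apart.

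Kallikreins are secreted serine proteases that are made as inactive zymogens and switched on when another protease, often another kallikrein, removes a short propeptide. KLK5 and KLK7 are best known from skin, where KLK5, a trypsin-like enzyme, activates KLK7, a chymotrypsin-like enzyme, and both cleave the proteins that hold the outermost cells together. KLK6 and KLK8 are also made in the brain, and KLK10 was described as a gene whose expression is lost in many breast cancers. Steroid hormones regulate many genes of the family, and secreted inhibitors such as the serpins hold the enzymes in check.

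On the GRCh37 (hg19) build the kallikrein genes span chr19:51322402-51587502, and all 5 genes found lie on the minus strand. KLK5 covers chr19:51446559-51456349, KLK6 covers chr19:51461887-51472929 and KLK7 covers chr19:51479724-51487355. KLK8 covers chr19:51499263-51505967 and KLK10 covers chr19:51515995-51523431. The annotated KLK8 gene shares 6694 bases with ENSG00000269741, a protein-coding gene without a symbol on the same strand, and 204 bases with KLK9. Reads in the shared bases could have been assigned to either gene, so the KLK8 and KLK9 values are uncertain to that extent.

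RefSeq promoter windows (GRCh38.p14, minus strand) were found for 5 of the 6 listed genes and not for KLK8. The 250 bases before an annotated start of KLK5 (chr19:50953039-50953288), KLK6 (chr19:50969592-50969841), KLK7 (chr19:50983918-50984167) and KLK10 (chr19:51019710-51019959) are printed 5′ to 3′, because these genes include the largest (KLK6) and the smallest (KLK10) glucose response. Capitals mark matches on either strand to TATAA (the core of a TATA box), GGGCGG (a GC box) and CAGGTG (an E2 box).
KLK5: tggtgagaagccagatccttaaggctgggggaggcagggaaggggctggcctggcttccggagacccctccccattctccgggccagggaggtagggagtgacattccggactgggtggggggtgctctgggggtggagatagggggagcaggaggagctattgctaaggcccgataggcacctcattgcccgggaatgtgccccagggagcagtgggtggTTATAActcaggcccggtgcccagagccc
KLK6: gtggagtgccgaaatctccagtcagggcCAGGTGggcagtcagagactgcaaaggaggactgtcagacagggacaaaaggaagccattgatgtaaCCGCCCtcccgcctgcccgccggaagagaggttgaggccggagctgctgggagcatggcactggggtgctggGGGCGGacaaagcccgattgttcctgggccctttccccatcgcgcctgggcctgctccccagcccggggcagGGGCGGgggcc
KLK7: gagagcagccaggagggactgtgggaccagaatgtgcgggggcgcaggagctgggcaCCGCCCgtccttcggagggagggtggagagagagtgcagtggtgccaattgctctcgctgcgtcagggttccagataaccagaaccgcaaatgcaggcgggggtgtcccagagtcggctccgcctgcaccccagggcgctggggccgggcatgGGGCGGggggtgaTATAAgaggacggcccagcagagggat
KLK10: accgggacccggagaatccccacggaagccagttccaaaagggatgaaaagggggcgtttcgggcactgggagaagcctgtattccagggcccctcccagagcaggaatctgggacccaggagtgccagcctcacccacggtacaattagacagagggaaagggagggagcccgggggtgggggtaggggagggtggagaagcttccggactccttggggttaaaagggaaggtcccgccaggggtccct
The KLK5 window held TATAA on both strands as overlapping matches, 28 and 29 bases before the start. The printed KLK7 window held TATAA 27 bases before the start and GGGCGG at 193 and 40 bases. Of the windows of other KLK7 starts, 1 held TATAA at 129 bases and 1 held none. The KLK6 window held GGGCGG at 155, 83 and 11 bases and CAGGTG at 222 bases before the start. The KLK10 window held none of these letters. Of all 35116 promoters of the same length, 18.9% held TATAA, 42.6% held GGGCGG and 17.5% held CAGGTG. None of the 9 windows of the listed genes held TGANTCA (an AP-1 site, 6.57% of all promoters), CACGTG (an E-box, 6.34%) or AGAACA (part of a steroid receptor site, 12.4%). The 4 printed windows had a GC content of 64.8% (KLK5), 66.8% (KLK6), 67.2% (KLK7) and 62.8% (KLK10), against a median of 58.0% for all promoters.

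Libraries held between 14094597 and 24425916 recovered reads, so the limit of 3 reads was 0.123 CPM in the deepest and 0.213 CPM in the shallowest library (CPM being reads relative to the library's total). The chi-square per gene between replicate libraries lay between 2.02 and 5.20, above the value near 1 that counting error gives. The labels do not say that replicates came from separate cultures, so p-values measure only the spread between these samples, which may be technical. VIM, the mesenchymal intermediate filament vimentin, averaged 96228 ± 2742 normalized reads in low-glucose MDA-MB-231 and 21.5 ± 5.48 in low-glucose MDA-MB-468 (SD, n = 4), and CDH1 (E-cadherin) averaged 5.51 ± 1.12 and 2007 ± 54.2. ESR1, the estrogen receptor, averaged 1.31 ± 1.01 in low-glucose MDA-MB-231 and 57.9 ± 7.87 in low-glucose MDA-MB-468. The table held 7 of 8 listed markers of the lines, and EGFR, KRT8 and KRT18 were also higher in MDA-MB-468 and ERBB2 lower.

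The kallikrein genes were read in MDA-MB-468 and were at or near 0 in MDA-MB-231. In the 8 MDA-MB-231 libraries, KLK6, KLK7 and KLK8 had no read. KLK5 had 3 reads, all in low-glucose replicate 3, and KLK10 had 1 read, in high-glucose replicate 3. The 5 genes together had 3 of 74415486 reads in low-glucose MDA-MB-231 and 1 of 69952973 in high-glucose MDA-MB-231, against 21340 of 69558272 in low-glucose MDA-MB-468 and 39467 of 64329906 in high-glucose MDA-MB-468. All 4 values of each gene in MDA-MB-468 lay above all 4 in MDA-MB-231, a separation that 42.4% of the 17115 genes tested over both lines showed in low glucose and 41.6% in high glucose. The limma fit called 5 of 5 higher in MDA-MB-468, where it called 45.0% of all genes higher in low glucose and 44.6% in high glucose. Because this contrast was in view when the genes were chosen, nothing is read from these counts. Line and culture medium cannot be told apart here.

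The sizes of the line difference are bounds set by depth wherever MDA-MB-231 had no read, taken against a limit of 3 reads over the group. In low glucose KLK6 was at least 1606-fold higher in MDA-MB-468, KLK7 at least 91.6-fold, KLK8 at least 230.4-fold and KLK10 at least 888-fold. KLK5 was 4794-fold higher, with a 95% counting interval from 1640 to 23251. In high glucose the bounds were 9255-fold for KLK5, 3362-fold for KLK6, 149.7-fold for KLK7 and 406-fold for KLK8, and KLK10 was 3398-fold higher with a counting interval from 609 to 134262. Intervals and limits cover counting error only. The order of these bounds follows the read numbers in MDA-MB-468 and says nothing of the levels in MDA-MB-231.

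In MDA-MB-468 the 5 kallikrein genes were higher in high glucose, by between 1.40 times for KLK10 and 2.27 times for KLK6 as the ratio of group means. All values below are normalized reads, the deposited counts divided by a size factor per library, and log2 fold changes are on the scale of log2(value + 1), high minus low glucose. In bulk RNA, a change in the number of cells that express a gene cannot be told apart from a change in RNA per cell.

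KLK5, the trypsin-like enzyme that activates other kallikreins, had the highest levels. Replicates 1 to 4 held 3160.8, 2999.4, 3094.9 and 2873.4 normalized reads in low glucose and 6316.1, 6021.2, 6545.6 and 6579.0 in high glucose. The groups did not overlap, and the lowest high-glucose library was far above the highest low-glucose library. The means were 3032 ± 125 and 6365 ± 258 (SD, n = 4), with a log2 fold change of 1.07 ± 0.036 (SE).

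KLK6, also called neurosin, had the largest fold change. Its values were 1018.6, 973.2, 1070.4 and 999.7 in low glucose and 2299.1, 2196.8, 2334.9 and 2409.9 in high glucose. Every high-glucose library lay above every low-glucose library. The means were 1015 ± 41.1 and 2310 ± 88.6 (SD, n = 4), with a log2 fold change of 1.19 ± 0.040 (SE).

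KLK7, the chymotrypsin-like enzyme that KLK5 can activate, had the lowest levels. It held 56.9, 54.2, 65.6 and 54.8 normalized reads in low glucose and 94.3, 97.2, 101.9 and 116.3 in high glucose, with no overlap between the groups. The means were 57.9 ± 5.30 and 102 ± 9.77 (SD, n = 4), with a log2 fold change of 0.81 ± 0.12 (SE). Its coefficient of variation between replicates, 9.16% in low and 9.54% in high glucose, was below the 12.6% and 9.91% that counting error alone would give.

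KLK8, also called neuropsin, held 167.7, 118.3, 151.4 and 138.3 normalized reads in low glucose and 267.3, 281.8, 304.4 and 271.4 in high glucose. The groups did not overlap, and low-glucose replicate 2 was the lowest library. The means were 143.9 ± 20.9 and 281 ± 16.6 (SD, n = 4), with a log2 fold change of 0.97 ± 0.097 (SE). The low-glucose replicates varied by 14.5%, where counting error would give 7.92%.

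KLK10 had the smallest fold change. Its values were 597.1, 462.3, 622.3 and 543.4 in low glucose and 750.5, 778.9, 778.3 and 809.2 in high glucose. The groups did not overlap, but the gap between them was narrower than for KLK5 or KLK6, relative to the group means. The means were 556 ± 70.8 and 779 ± 24.0 (SD, n = 4), with a log2 fold change of 0.49 ± 0.072 (SE). The low-glucose replicates varied by 12.7%, against 4.04% from counting error, and the high-glucose replicates by 3.08%, against 3.60%.

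**Figure D1:**
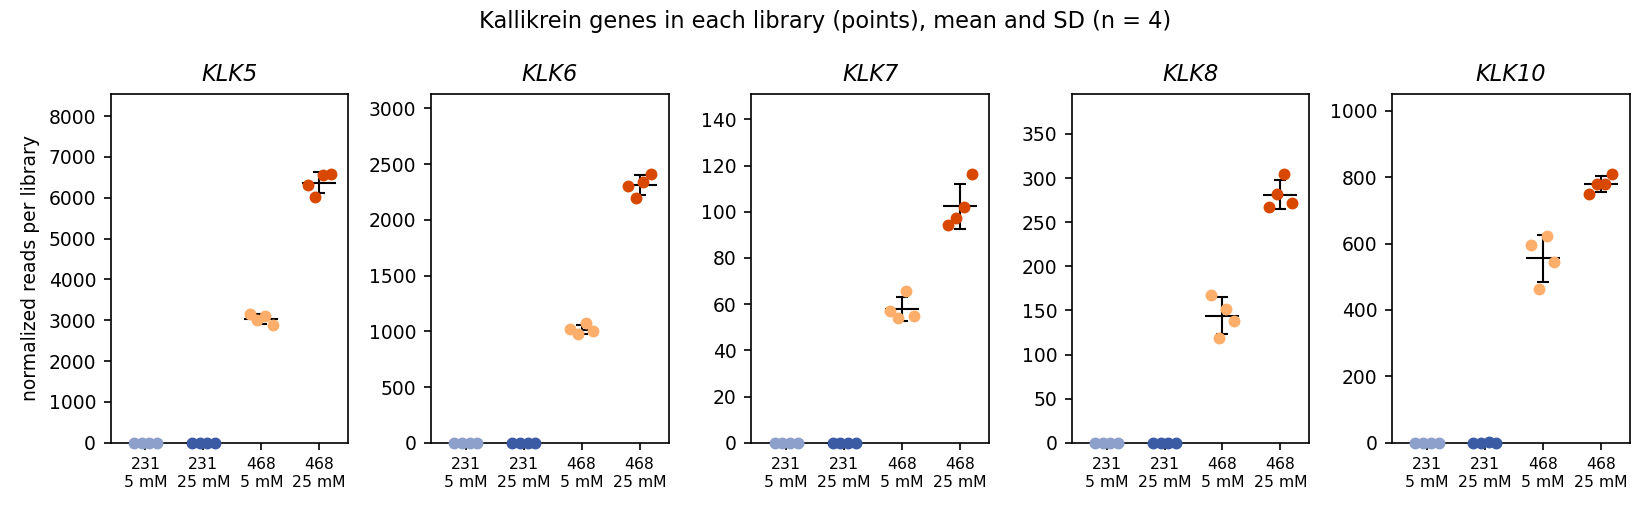
Normalized reads of KLK5, KLK6, KLK7, KLK8 and KLK10 (vertical axes, linear, from 0) in each of the 16 libraries, by line and glucose concentration. Points are libraries, and black marks are the mean and SD of 4 replicates. MDA-MB-231 sits at or near 0 throughout, and the MDA-MB-468 groups do not overlap for any of the 5 genes.

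Low-glucose replicate 2 was the lowest MDA-MB-468 library for KLK6, KLK7, KLK8 and KLK10. Without it, the log2 fold change was 1.17 for KLK6, 0.78 for KLK7, 0.88 for KLK8 and 0.41 for KLK10. The transcripts of the 5 genes had a median length of 1513 bases and a median GC content of 55.8%, against 2997 bases and 48.9% for the genes tested in this line. With a correction for transcript length the log2 fold changes were 1.001 (KLK5), 1.11 (KLK6), 0.76 (KLK7), 0.88 (KLK8) and 0.46 (KLK10). With a correction for GC content they were 0.99, 1.12, 0.80, 0.90 and 0.44 in the same order.

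The limma fit called 5 of 5 kallikrein genes in MDA-MB-468, all higher, where it called 47.6% of the 15757 genes tested (24.9% higher and 22.7% lower). All 4 high-glucose values lay above all 4 low-glucose values for 5 of 5 kallikrein genes and for 22.2% of the genes tested. The median log2 fold change was 0.97 over the 5 genes and 0.00 over all genes tested. Since the genes were chosen on this contrast, these figures are a description. Ordered by log2 fold change from the highest, KLK6 stood at place 187 of 15757, KLK5 at 258, KLK8 at 333, KLK7 at 543 and KLK10 at 1437. Among the 11474 genes that averaged 5 CPM or more in the group with the higher mean, the places were 60, 90, 127, 234 and 782. The rule had no threshold, so there are no members just outside it.

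**Figure D2:**
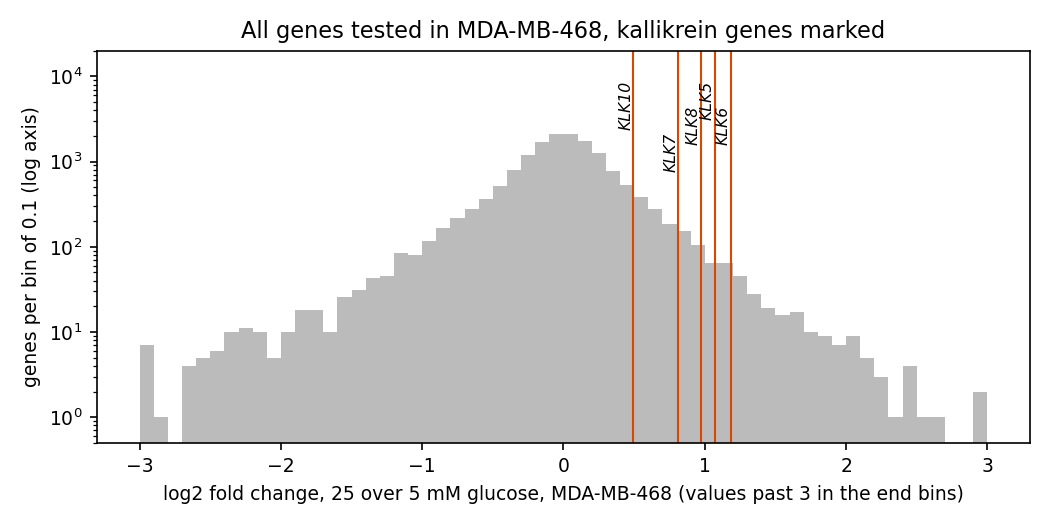
Number of genes (vertical axis, log scale) by log2 fold change in MDA-MB-468, 25 over 5 mM glucose (horizontal axis), for the 15757 genes tested, with values past 3 in either direction placed in the end bins. Vertical lines mark the kallikrein genes, from KLK10 at 0.49 to KLK6 at 1.19, on the right flank of a distribution centred on 0.00.

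In MDA-MB-231, 0 of 5 kallikrein genes reached 0.5 CPM in at least 2 libraries, so their glucose response was not tested there. A response was not detectable at this depth. Of the 14884 genes tested in that line, 15.1% were called (5.71% higher and 9.37% lower). For the difference of the glucose response between lines, limma called 4 of 5 kallikrein genes, all higher in MDA-MB-468 and all but KLK10, against 30.9% of 17115 genes (17.0% higher and 13.9% lower). The difference was 1.60 ± 0.47 for KLK5, 1.19 ± 0.14 for KLK6, 0.81 ± 0.24 for KLK7, 0.97 ± 0.22 for KLK8 and 0.26 ± 0.27 for KLK10 (log2, ± SE). Count models on the recovered reads called 0 of 5, both with edgeR and with DESeq2, and gave KLK10 a difference below 0 (-1.14 with edgeR and -0.28 with DESeq2). With the MDA-MB-231 values at or near 0, the difference is set by MDA-MB-468 and by the pseudocount of 1, and nothing is read from it.

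The proportions of the genes among their summed reads differed between the glucose concentrations. Together they took 0.0306% ± 0.0014 of the MDA-MB-468 reads in low glucose and 0.0613% ± 0.0018 in high glucose (SD, n = 4). Of these reads, KLK5 made up 63.1% ± 1.43 and 64.7% ± 0.37, and KLK6 made up 21.1% ± 0.57 and 23.5% ± 0.22. KLK5 overlapped between the concentrations and KLK6 did not. KLK10 made up 11.5% ± 1.05 in low and 7.92% ± 0.28 in high glucose, without overlap. KLK8 made up 2.99% ± 0.32 and 2.86% ± 0.18, and KLK7 made up 1.20% ± 0.075 and 1.04% ± 0.073, both with overlapping replicates.

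Within a library, ratios to KLK6 do not depend on how the libraries were scaled. KLK10 had between 47.5 and 58.6 reads per 100 KLK6 reads in low glucose and between 32.6 and 35.5 in high glucose. KLK7 had between 5.48 and 6.13 and between 4.10 and 4.83. KLK5 had between 287 and 310 and between 273 and 280. For these 3 genes every high-glucose ratio lay below every low-glucose ratio. KLK6 had the largest fold change of the 5, so the fall of the ratios follows from the choice of KLK6 as reference. For KLK8 the ratios overlapped, at 12.2 to 16.5 and 11.3 to 13.0. These ratios are further descriptions of the contrast on which the genes were chosen and were not tested.

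**Figure D3:**
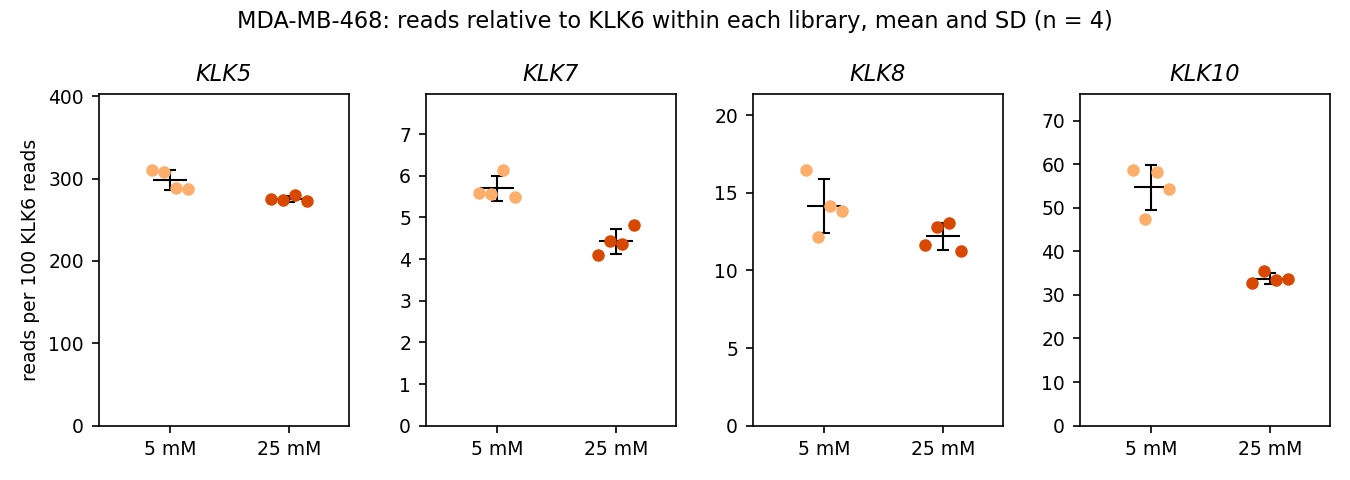
Reads of KLK5, KLK7, KLK8 and KLK10 per 100 KLK6 reads of the same library (vertical axes, linear, from 0) in MDA-MB-468 at 5 and 25 mM glucose. Points are libraries, and black marks are the mean and SD of 4 replicates. KLK10 shows the widest separation, with means of 54.7 and 33.8, and KLK8 overlaps.

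Levels were compared between genes per kilobase of the canonical transcript. In low glucose the order was KLK5 at 2004 ± 82.5 normalized reads per kilobase, KLK6 at 711 ± 28.7, KLK10 at 186 ± 23.7, KLK8 at 157 ± 22.8 and KLK7 at 29.6 ± 2.71 (SD, n = 4). KLK10 and KLK8 overlapped in low glucose, and the other neighbours in this order did not. In high glucose the order was KLK5 at 4207 ± 170.2, KLK6 at 1617 ± 62.0, KLK8 at 307 ± 18.2, KLK10 at 261 ± 8.03 and KLK7 at 52.4 ± 5.00, and no neighbours overlapped. Per kilobase, KLK8 thus lay above KLK10 in high glucose, while they overlapped in low glucose. This order rests on canonical lengths of 915 bases for KLK8 and 2984 bases for KLK10. Before division by length, KLK10 was above KLK8 in both concentrations (556 against 143.9 and 779 against 281 normalized reads). The KLK8 values are also uncertain through the overlap with ENSG00000269741.

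The other kallikreins of the cluster were barely read. Of 9 listed, the table held KLK1, KLK9 and KLK14. KLK2, KLK3, KLK4, KLK12, KLK13 and KLK15 were not analysed here. In MDA-MB-468, KLK1 (tissue kallikrein, which releases kinins) averaged 4.63 ± 1.25 normalized reads in low glucose and 7.89 ± 1.45 in high glucose (SD, n = 4). Its log2 fold change was 0.67 ± 0.41 (SE), at a limma adjusted p of 0.19. KLK9 averaged 6.40 ± 3.62 and 11.7 ± 1.05, a log2 fold change of 0.91 ± 0.40 with a limma adjusted p of 0.073. Without low-glucose replicate 2, which held its highest low-glucose value (11.1 normalized reads), the KLK9 change was 1.19 with a limma adjusted p of 0.028. KLK14 averaged 3.45 ± 0.73 and 3.19 ± 0.86 and did not pass the filter. The 2 that were tested, KLK1 and KLK9, were not called. In low and high glucose KLK1 averaged 0.29 and 0.49 CPM, and KLK9 averaged 0.41 and 0.73 CPM. Without the high-glucose libraries neither would have passed the filter, so nothing is read from their fold changes or p-values. In MDA-MB-231, KLK9 had no read, KLK1 had 4 and 3 reads in low and high glucose, and KLK14 had 1 and 0.

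The annotation placed 54 other genes within 300 kb of the cluster, of which the table held 7. In MDA-MB-468, 5 of the 7 were tested, 3 rose and 1 fell, with a median log2 fold change of 0.40 over the 5, against 24.9% of all genes higher, 22.7% lower and a median of 0.00. C19orf48P, a pseudogene on the KLK1 side of the cluster, rose by 0.40 ± 0.058 (SE, limma adjusted p = 2.75e-05) and ETFB, a subunit of the mitochondrial electron transfer flavoprotein, rose by 0.43 ± 0.046 (adjusted p = 9.19e-07). VSIG10L changed by -0.48 ± 0.10 (adjusted p = 0.00111). The third rise was ENSG00000269741, which averaged 2.98 ± 0.57 normalized reads in low glucose and 14.9 ± 5.19 in high glucose (log2 fold change 1.96 ± 0.40). It is named here after its values were seen. At 0.19 CPM in low and 0.93 CPM in high glucose, it passed the filter only through the high-glucose libraries, so nothing is read from its call. Because it shares bases with KLK8 and KLK9, it is not a separate neighbour, though the count of rises and the median include it. In MDA-MB-231, 1 of 4 tested neighbours was called, where 15.1% of all genes were, C19orf48P at -0.21 ± 0.057 (adjusted p = 0.018), a call lost without low-glucose replicate 3, without high-glucose replicate 2 or 3 (adjusted p up to 0.068) and with the replicate block, and the median was -0.14.

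**Figure D4:**
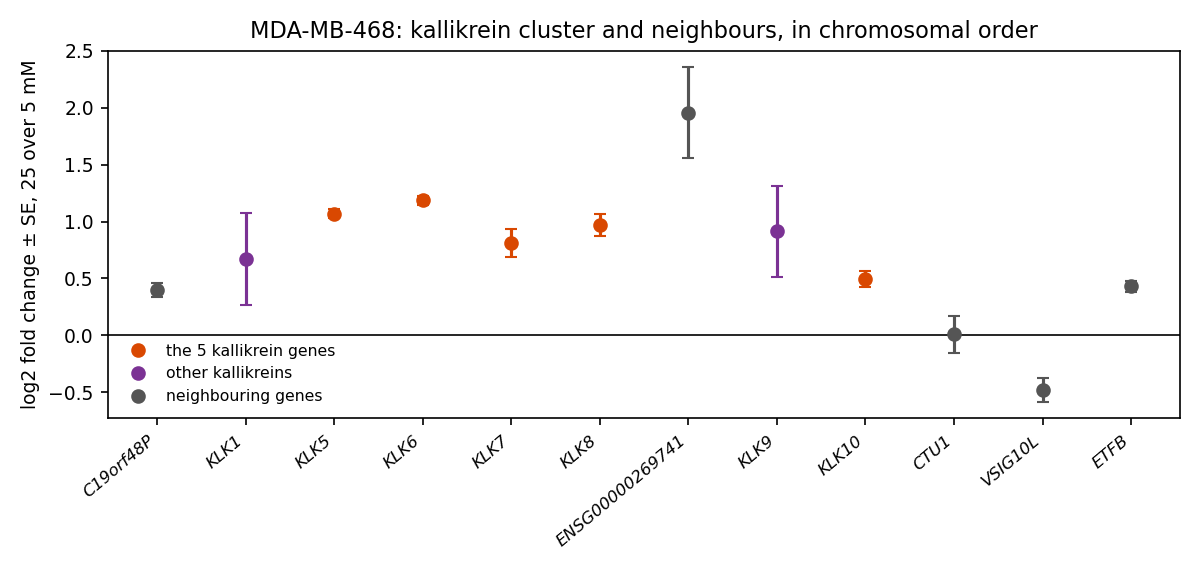
Log2 fold change in MDA-MB-468, 25 over 5 mM glucose (vertical axis, with SE of 4 against 4 libraries), of the kallikrein genes and their neighbours that were tested, in chromosomal order (not to scale). The 5 kallikrein genes lie between 0.49 and 1.19. Of their neighbours, ENSG00000269741 lies above all of them at 1.96, ETFB at 0.43 and C19orf48P at 0.40 lie just below KLK10, CTU1 lies at 0.01 and VSIG10L at -0.48. ENSG00000269741 overlaps KLK8 and KLK9 and passed the filter only through the high-glucose libraries. KLK1 and KLK9 would not have passed it without those libraries either.

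Kallikreins act with activating proteases, inhibitors, substrates and hormone receptors, and a list of each was counted against the genes tested. These lists were chosen with earlier results of these data known. Their counts and the p-values of their genes, here and below, are descriptions and not independent support. The list of activating proteases had 11 genes, among them PLAUR, which encodes a receptor and is not itself a protease. The table held 7 of the list, of which 6 were tested in MDA-MB-468. There 2 rose and 2 fell, with a median of 0.00, where 47.6% of all genes were called. PLAU, the plasminogen activator urokinase, rose by 0.45 ± 0.10 (SE, limma adjusted p = 0.00133) and ST14, the membrane protease matriptase, by 0.10 ± 0.036 (adjusted p = 0.0239), a call lost in 5 of 19 alternatives, among them without low-glucose replicate 2 or 3, without high-glucose replicate 4 and with the GC correction (lowest value 0.01, adjusted p up to 0.75). TMPRSS2, another membrane protease, changed by -0.18 ± 0.036 (adjusted p = 0.00051) and PLAUR, the urokinase receptor, by -0.23 ± 0.060 (adjusted p = 0.0051). In MDA-MB-231, 1 of 4 was called, against 15.1% of all genes, PLAU at -0.32 ± 0.030 (adjusted p = 1.07e-06), and the median was -0.08.

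Of 17 inhibitors, the table held 12. In MDA-MB-468, 11 were tested, 6 rose and 0 fell, with a median log2 fold change of 0.19, and 24.9% of all genes rose. SERPINA3, which encodes the inhibitor antichymotrypsin, averaged 105.4 ± 4.42 and 196 ± 14.8 normalized reads (log2 fold change 0.88 ± 0.089, limma adjusted p = 4.89e-07). SERPINF2, which encodes antiplasmin, rose by 0.73 ± 0.11 (adjusted p = 4.06e-05) and SLPI, the secretory leukocyte peptidase inhibitor, by 0.45 ± 0.035 (adjusted p = 2.56e-08). The others that rose were SPINT2, PI3 and SERPINB6, by between 0.10 and 0.22. The SERPINB6 call was lost in 13 of 19 alternatives (limma adjusted p up to 0.60), among them without any of 7 libraries, and the PI3 call without low-glucose replicate 2 and with the length correction (adjusted p up to 0.16). SERPINA3 had no read in MDA-MB-231, as was the case for KLK6, KLK7 and KLK8. In MDA-MB-231, 1 of 6 tested inhibitors rose, where 5.71% of all genes did, SPINT1 by 0.34 ± 0.092 (adjusted p = 0.0196), a call lost without low-glucose replicate 2 or 3 or high-glucose replicate 2 (lowest value 0.27, adjusted p up to 0.076), and the median was 0.22.

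Of 14 proteins that kallikreins can cleave, the table held genes for 10. In MDA-MB-468, 10 were tested, 0 rose and 3 fell, where 22.7% of all genes fell, with a median of 0.06. FN1 (fibronectin) changed by -0.22 ± 0.054 (limma adjusted p = 0.0033), F2RL1, the protease-activated receptor that trypsin-like kallikreins can cleave, by -0.21 ± 0.057 (adjusted p = 0.0060) and APP by -0.09 ± 0.023 (adjusted p = 0.0047). In MDA-MB-231, 5 of 9 fell, where 9.37% of all genes did. These were FN1 at -0.26 ± 0.026 (adjusted p = 1.81e-06), L1CAM at -0.19 ± 0.041 (adjusted p = 0.0052), IGFBP3 at -0.19 ± 0.051 (adjusted p = 0.020), F2RL1 at -0.14 ± 0.029 (adjusted p = 0.0037) and APP at -0.10 ± 0.025 (adjusted p = 0.015). The median there was -0.10, and the IGFBP3 call was lost in 5 of 19 alternatives, among them without low-glucose replicate 3 or high-glucose replicate 3 or 4 (adjusted p up to 0.059). The APP call there was lost without low-glucose replicate 1 or high-glucose replicate 4 and with quantile scaling (adjusted p up to 0.28).

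Of 10 hormone receptors, the table held 9, of which 8 were tested in MDA-MB-468. There 1 rose and 2 fell, with a median of -0.04, where 47.6% of all genes were called. THRA, a thyroid hormone receptor, rose by 0.22 ± 0.070 (SE, limma adjusted p = 0.0177), a call lost in 4 of 19 alternatives, among them without low-glucose replicate 4 or high-glucose replicate 1 (adjusted p up to 0.060) and with the GC correction (0.13, adjusted p = 0.13). VDR, the vitamin D receptor, changed by -0.28 ± 0.049 (adjusted p = 0.00020) and ESR1 by -0.41 ± 0.16 (adjusted p = 0.042). The ESR1 call was lost in 12 of 19 alternatives (-0.50 to -0.32 over all 19, adjusted p up to 0.13), among them edgeR, DESeq2 and the fits without low-glucose replicate 2, 3 or 4 or high-glucose replicate 1, 2 or 3. In MDA-MB-231, 1 of 8 was called, against 15.1% of all genes, RARG, a retinoic acid receptor, at 0.23 ± 0.054 (adjusted p = 0.0075), and the median was -0.04.

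**Figure D5:**
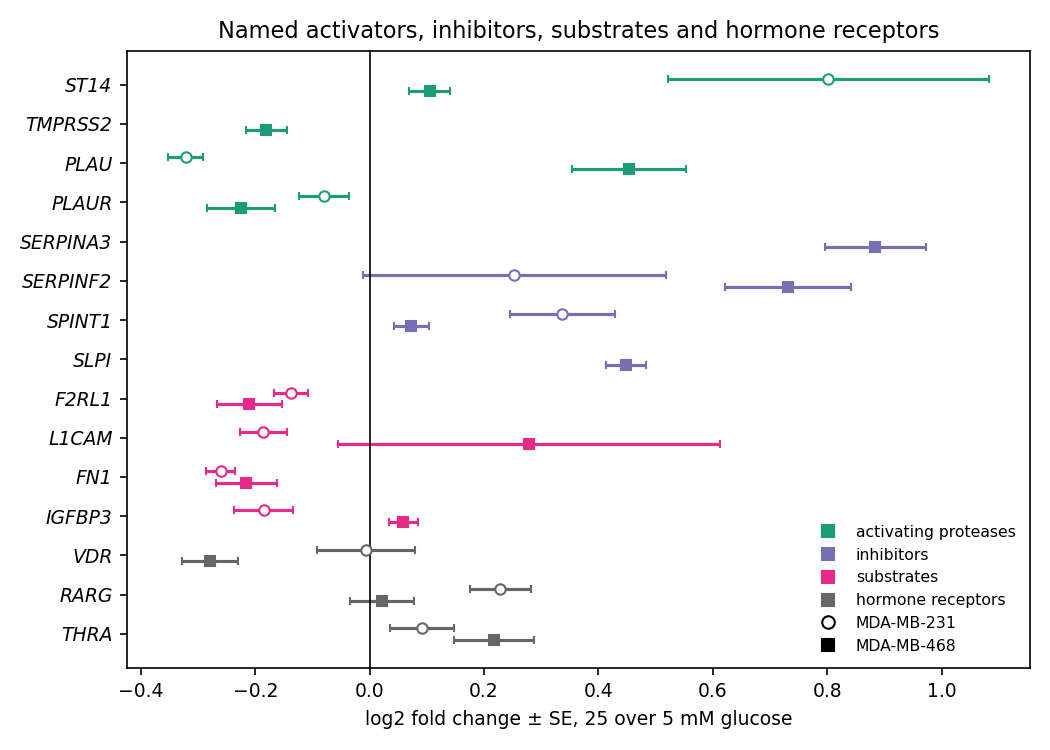
Log2 fold change, 25 over 5 mM glucose (horizontal axis, with SE of 4 against 4 libraries), of the named activating proteases, inhibitors, substrates and hormone receptors in MDA-MB-231 (open circles) and MDA-MB-468 (filled squares). SERPINA3 at 0.88 and SERPINF2 at 0.73 lie farthest to the right in MDA-MB-468, and genes that did not pass the filter in a line have no mark there.

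Genes outside the family were ordered by their Pearson correlation with the mean z-score of the 5 kallikrein genes. Over the 16 samples the highest were SLC6A2 (a noradrenaline transporter), SLC5A1 (a sodium-glucose cotransporter), PALD1, FMO6P and SERPINA3, with r between 0.9996 and 0.9997. The 16 samples share the line difference, and 3152 of 12425 genes had r above 0.95. Each of the 5 genes had no read in MDA-MB-231. SLC5A1 averaged 371 ± 7.17 normalized reads in low-glucose and 759 ± 33.7 in high-glucose MDA-MB-468, and SLC6A2 averaged 234 ± 15.7 and 455 ± 21.3 (SD, n = 4). Within the 8 MDA-MB-468 samples the highest were CIZ1, TRIM29, TMEM132A, SLC66A2 and PROM2, with r between 0.998 and 0.999, and 966 of 11469 genes had r above 0.95. These samples share the glucose difference. TRIM29 averaged 4534 ± 215 and 6873 ± 116 normalized reads, and TMEM132A averaged 2039 ± 123 and 3538 ± 166.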

How the data were processed

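RNA of 16 samples (2 lines, 5 or 25 mM glucose, 4 replicates per group) was sequenced. The study's methods state trimming with Trimmomatic, alignment to hg19 with Tophat and an Ensembl annotation, and DESeq2, while the submitters' processing notes name hg38 and edgeR. How reads were counted, and whether strand was used, is not given in the sources used here. The authors deposited a normalized signal, each gene's read count over a size factor of its library. Per library, 100% of the values equalled a whole number of reads times 1 constant (tolerance 0.001 of a read, largest deviation 5.45e-05), so reads were recovered. Of 18332 gene IDs, 17647 had a symbol and 17418 a transcript length in a GENCODE annotation on GRCh37.

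Genes reaching 0.5 CPM in 2 or more fitted samples entered limma 3.58.1 (R 4.3.3, lmFit and eBayes with trend) on log2(value + 1), two-sided, with Benjamini-Hochberg adjustment over all genes tested and a threshold of 0.05. The glucose fits used the 8 samples of a line. The differences between lines, and of the glucose response between lines (MDA-MB-468 minus MDA-MB-231), were contrasts of 4 group means over 16 samples. The kallikrein genes and the gene lists were chosen with earlier results of these data known, so kallikrein values carry no p-value. Lists are given as counts beside the share of all genes, without a set test. Counts and p-values of list genes are therefore descriptions.

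Named in the text are the listed kallikreins, up to 4 called genes per list with the largest change among those of at least 5 CPM, and the 5 genes most correlated with the kallikrein mean, among genes of at least 5 CPM. Called genes beyond these were named after their values were seen. Lists of neighbours used 300 kb around the cluster. Counting intervals are exact, at 95%, and limits are 3 reads. Alternatives were pseudocounts of 0.5 and 5, no filter, at least 1 CPM in 4 samples, TMM and quantile scaling, edgeR 4.0.16 (quasi-likelihood) and DESeq2 1.42.0 on recovered reads, the replicate number as a block, and each replicate left out. Corrections for transcript length and GC content (lowess) were added after seeing the data. The fits were tested on simulated data.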

Additional observations from a re-analysis of the deposited data

Results flagged for a closer look

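Within a group of 4, a library was singled out when its gap to the nearest other exceeded the 95% critical value of Dixon's test. With normally spread values, chance does this in about 1 in 20 groups. That rate does not hold near 0 reads, where a group with reads in only 1 library is always singled out. In MDA-MB-231, where reads were near 0, this held for KLK5 in low-glucose replicate 3 (3.35 normalized reads), KLK14 in the same library (1.12), SLPI in low-glucose replicate 1 (0.715) and KLK10 in high-glucose replicate 3 (0.929), each against 0 in the other replicates. PI3 was 0 in high-glucose MDA-MB-231 replicate 1, against 0.929 to 1.05, which is 1 read in each of the others. Nothing is read from these flags near 0. ST14 was 7.20 in low-glucose MDA-MB-231 replicate 4, against 14.5 to 15.01, and SPINT1 was 231.4 in high-glucose MDA-MB-231 replicate 2, against 192 to 198. SPINT2 was 6188 in low-glucose MDA-MB-231 replicate 4, against 6689 to 6757. In MDA-MB-468, PLAU was 88.5 in low-glucose replicate 2 (others 101.5 to 103.3), TMPRSS2 was 1480 in high-glucose replicate 3 (others 1376 to 1387) and SERPINA3 was 218 in high-glucose replicate 1 (others 186 to 190.5). SERPINB6 was 965 in low-glucose replicate 4 (others 992 to 996) and ESR1 was 69.7 in low-glucose replicate 2 (others 53.0 to 54.8).

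Among the genes of the lists that are named in the text and were tested in both lines, the limma interaction contrast called 8, given as the response in MDA-MB-468 minus that in MDA-MB-231 on the log2 scale. It was higher in MDA-MB-468 for PLAU by 0.78 ± 0.075 (SE, adjusted p = 8.3e-07), IGFBP3 by 0.24 ± 0.038 (adjusted p = 9.15e-05), SPINT2 by 0.19 ± 0.052 (adjusted p = 0.0096) and the keratin gene KRT8 by 0.15 ± 0.049 (adjusted p = 0.032). It was also higher for ETFB by 0.53 ± 0.059 (adjusted p = 3.35e-06) and C19orf48P by 0.61 ± 0.090 (adjusted p = 6.5e-05), both near the kallikrein cluster. It was lower for ST14, at -0.70 ± 0.22 (adjusted p = 0.023), and SPINT1, at -0.26 ± 0.091 (adjusted p = 0.037). The ST14 difference rests on low MDA-MB-231 values, 56 reads in low and 92 in high glucose over each group (0.74 and 1.31 CPM). Within MDA-MB-231 the ST14 response was not called (0.80 ± 0.28, limma adjusted p = 0.065). The smaller SE of the difference comes from a spread shared over all 4 groups. Of 25 alternatives, the SPINT1 call was lost in 11 (adjusted p up to 0.077), among them the replicate block and the fits without low-glucose MDA-MB-231 replicate 2 or 3, high-glucose MDA-MB-231 replicate 2 or any MDA-MB-468 library but high-glucose replicate 3. The KRT8 call was lost in 10 (adjusted p up to 0.15), among them the fits without low-glucose MDA-MB-231 replicate 1, 2 or 3, high-glucose MDA-MB-231 replicate 2 or 3, low-glucose MDA-MB-468 replicate 2 or 4 or high-glucose MDA-MB-468 replicate 3 or 4, and the SPINT2 call with quantile scaling alone (0.09, adjusted p = 0.23). SERPINA3, SLPI and ENSG00000269741 passed the filter only through MDA-MB-468, so no difference between the lines is read for them, and edgeR on the recovered reads called none of the 3.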

How the results depend on the processing

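Over 19 alternatives each, the log2 fold changes in MDA-MB-468 lay between 0.99 and 1.096 for KLK5, 1.11 and 1.21 for KLK6, 0.75 and 0.87 for KLK7, 0.88 and 1.05 for KLK8, and 0.41 and 0.55 for KLK10, and 5 of 5 were called in each. For the difference of the response between lines, 4 kallikrein genes were called in the main fit and 0 by edgeR and by DESeq2. Same-numbered samples did not deviate together over all genes tested (correlations between -0.04 and 0.03), so no pairing was seen. A batch that moved only some genes could be missed by such a correlation. With the replicate number as a block, called neighbours in MDA-MB-231 went from 1 to 0, and hormone receptors called for the difference between lines from 0 to 1. Of 679 recomputed counts of called genes, 630 stayed within 1.5 times the main count, and 49 moved. The causes were not tested.

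In MDA-MB-231, activating proteases called went from 1 to 2 with DESeq2 and with the length correction and 3 with the GC correction, inhibitors from 1 to 2 and hormone receptors from 1 to 2 with the GC correction, and neighbours from 1 to 2 with the length correction. Leaving out single replicates gave 1 to 3 activating proteases (3 without low-glucose replicate 4), 0 to 2 inhibitors (2 without low-glucose replicate 1, 0 without low-glucose replicate 2 or 3 or high-glucose replicate 2), 3 to 5 substrates (3 without high-glucose replicate 4), 1 to 2 hormone receptors (2 without low-glucose replicate 3) and 0 to 1 neighbours (0 without low-glucose replicate 3 or high-glucose replicate 2 or 3). In MDA-MB-468, other kallikreins went from 0 to 1 (KLK9) with quantile scaling and hormone receptors from 3 to 1 with DESeq2. Single replicates gave 0 to 1 other kallikreins and 3 to 5 substrates (the higher counts without low-glucose replicate 2), and 1 to 4 hormone receptors (1 without high-glucose replicate 1).

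For the difference between lines, inhibitors went from 4 to 2 with edgeR and DESeq2, substrates from 1 to 2 with quantile scaling, and hormone receptors from 0 to 1 with a pseudocount of 5, the stricter filter, TMM, edgeR and DESeq2, and to 2 with quantile scaling. Single replicates gave 0 to 1 other kallikreins (1 without low-glucose MDA-MB-468 replicate 2), 2 to 5 inhibitors (2 without low-glucose MDA-MB-468 replicate 4), 1 to 2 substrates (2 without high-glucose MDA-MB-468 replicate 2) and 0 to 1 hormone receptors (1 without any of 7 libraries). Other kallikreins called between lines went from 2 to 0 with the stricter filter in both glucose concentrations, and to 1 with quantile scaling in low glucose. Single replicates gave 2 in low and 1 to 2 in high glucose (1 without high-glucose MDA-MB-468 replicate 2 or 3). Of 96 single-gene fold changes, 19 lost and 14 gained a call in at least 1 alternative. The difference of the APP response between lines turned from 0.01 to -0.20 and was called with quantile scaling, and 10 fold changes, that of APP among them, turned sign in an alternative without being called on either side. TMM scaling moved 4 kallikrein levels by more than 1 SD. ST14 in MDA-MB-468 lost its call in 5 of 19 alternatives (0.01 to 0.12), THRA in 4 of 19, ESR1 in 12 and SERPINB6 in 13 of 19, and SPINT1 and IGFBP3 in MDA-MB-231 in 3 and 5 of 19. Depth limits the MDA-MB-231 values, where 3 reads are the limit.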
